A study of Mus musculus with 8 samples.

Results

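Apolipoproteins are the protein parts of the particles that carry cholesterol and triglyceride through the blood. The 10 apolipoprotein genes described here are Apoa1, Apoa2, Apoa4, Apoa5, Apob, Apoc1, Apoc2, Apoc3, Apoe and Apoh. They were chosen by name, and all 10 were found by their Ensembl identifiers among the 23634 genes of the larger and the 21201 genes of the smaller of the 2 deposited tables. Each table holds the authors' comparison of livers of mice lacking Cpeb4 with wild-type livers. The 8 libraries fall into 4 groups of 2: Cpeb4 KO and wild-type mice, each as RNA of whole liver and as RNA of purified endoplasmic reticulum (ER). The ER came from mice fasted overnight. The labels give no feeding state for the whole-liver RNA, and no age, sex, strain or knockout allele. They do not say whether the deletion is limited to 1 cell type, or whether each library of a group stands for its own mouse. The p-values therefore measure the spread between these samples, which may be technical.

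The tables do not state which RNA preparation they cover, so no table is called whole liver or ER here, and values of single libraries are not given. For every gene a table holds 1 mean count over its libraries (counts divided by size factors), 1 log2 fold change with its standard error (SE), and the p-value of DESeq2's Wald test, plain and adjusted by Benjamini-Hochberg over all tested genes. A gene passed at an adjusted p under 0.05. The direction of the comparison is not written either. It was read from Cpeb4, at -1.16 ± 0.11 (SE) in the authors' deposited larger table and at -1.10 ± 0.13 in the smaller, so that a negative value means lower in the knockout. The authors' estimates are moderated (low or variable genes are pulled to 0) and understate the size of a change. The mean counts of a table summed to 37351703 in the larger and 36848665 in the smaller. Relative library depth, read from genes with a single read, ran from 0.717 to 1.26 and from 0.839 to 1.64.

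The liver makes most of the apolipoproteins in plasma. Their mRNAs are translated on ribosomes bound to the ER, and the proteins enter the ER as they are made. Apob forms the scaffold of very low density and low density lipoprotein (VLDL and LDL), and is loaded with lipid in the ER by the transfer protein that Mttp encodes. The smaller apolipoproteins move between particles, where they activate or inhibit lipases and bind receptors. Cpeb4 encodes an RNA-binding protein of the CPEB family. These proteins bind U-rich cytoplasmic polyadenylation elements (CPEs) near the 3′ end of an mRNA, close to the polyadenylation signal, and alter its poly(A) tail and translation. The question the design puts to these genes is whether their transcript levels differed between knockout and wild type. Translation and protein were not measured.

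The ends of the apolipoprotein mRNAs were searched for such elements. The letters TTTTAT and TTTTAAT (DNA alphabet, mRNA strand, elements that do not overlap each other) were found in the last 300 bases of the representative transcript in none of the 10 genes. Among the 11879 expressed protein-coding genes with a window of that length, 33.7% held at least 1 of them, 27.2% TTTTAT and 10.5% TTTTAAT. The transcripts searched for Apoa2, Apoc3 and Apoc1 are only 492, 526 and 532 bases long, so the window covers most of each. Coding sequence was not separated from the untranslated end, so the windows of short and long mRNAs may not be alike. The 10 windows had a median GC content of 52.0%, against 42.3% over all these genes, and ran from 40.7% for Apob to 59.3% for Apoa4. The polyadenylation signal AATAAA stood in the last 60 bases of 8 of the 10 transcripts, starting 22 to 27 bases before the end, and 64.2% of 11883 genes had it there. The representative transcripts of Apoa5 and Apoe did not hold those letters in that window. The signals of 5 genes, 1 from each chromosomal locus of the family, show the letters around the signal, a small part of the window searched. They are given from 5′ to 3′ on the mRNA strand with AATAAA in capitals and 12 bases on each side, from GENCODE M21 transcripts (GRCm38). In Apob another AATAAA overlaps the marked one on its 5′ side, and only the copy nearer the end is marked.
Apob, chr12:8016802-8016831, plus strand: gaaggggaaataAATAAAtacttccttatt
Apoa1, chr9:46230433-46230462, plus strand: tggctttcttacAATAAAcctttccaaaat
Apoa2, chr1:171226340-171226369, plus strand: cctgttttctccAATAAAtgcggaaggagt
Apoc1, chr7:19689487-19689516, minus strand: tcatcacagaccAATAAAaaacgtgtagaa
Apoh, chr11:108414358-108414387, plus strand: ctgaaatagcagAATAAAgttactggattg
Each of the 5 is 1 unbroken stretch of the genome. A missing match says only that these letters are not in the window searched.

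The 10 protein-coding genes lie at 5 loci. Apoa1 (ENSMUSG00000032083, 46228580 to 46230466), Apoc3 (ENSMUSG00000032081, 46232933 to 46235636), Apoa4 (ENSMUSG00000032080, 46240696 to 46243459) and Apoa5 (ENSMUSG00000032079, 46268633 to 46271919) share 43.3 kb of chromosome 9. Apoc2 (ENSMUSG00000002992, 19671579 to 19677941), Apoc1 (ENSMUSG00000040564, 19689481 to 19692660) and Apoe (ENSMUSG00000002985, 19696109 to 19699188) share 27.6 kb of chromosome 7. Apob (ENSMUSG00000020609) lies on chromosome 12 from 7977648 to 8016835, Apoa2 (ENSMUSG00000005681) on chromosome 1 from 171225054 to 171226379, and Apoh (ENSMUSG00000000049) on chromosome 11 from 108343354 to 108414396. Apoc2 is uncertain, because 78.8% of its 31-base sequence words also occur in the annotated gene Gm44805. The other 9 share no such word with another gene on the transcript strand, and the opposite strand was not compared. Exons of Apoh overlap those of Prkca, exons of Apoa4 those of Gm10680 and Gm47528, and exons of Apoa5 those of Gm47544, on either strand. The strand setting of the counting is not known here.

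Apolipoprotein transcripts were among the most abundant in both tables. Together they made up 3.23% of the mean counts in the larger and 2.63% in the smaller table. The mean count of Apoe, the ligand for remnant uptake by the liver, was 484394 in the larger of the authors' deposited tables (rank 4 of all genes) and 355528 in the smaller (rank 6). The lowest means of the family were 9659 for Apoc2 in the authors' deposited larger table (rank 527) and 5867 for Apoa4 in the smaller (rank 931).

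Levels between genes were compared per exon length, as CPM (a gene's share of the summed mean counts, on the usual CPM scale) per kilobase of exon. In the larger table Apoa2, a structural protein of high density lipoprotein (HDL), had the highest level at 8117. It was followed by Apoe at 6066, by Apoa1, the main HDL protein, at 4590, and by Apoc1 at 2336. Apoc3, an inhibitor of lipoprotein lipase, had 1257, Apoh 849, Apoa5 494 and Apoa4 452. Apoc2, the cofactor that lipoprotein lipase needs, had 318, and Apob had 188. In the smaller table Apoa2 was again first at 9874, then Apoe at 4513, Apoc1 at 3811, Apoa1 at 3103 and Apoc3 at 1635. Apoh had 623, Apoc2 432 and Apoa5 318 there, and Apoa4 (87.7) and Apob (49.6) were last. Per kilobase of the longest transcript in place of all merged exons, Apoe (9211) stood above Apoa2 (8415) in the larger table, and Apoa2 (10236) stayed above Apoe (6853) in the smaller. The levels have no error, since the tables give no value per library, so the order of close neighbours such as Apoa5 and Apoa4 in the larger table could not be tested.

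**Figure D1:**
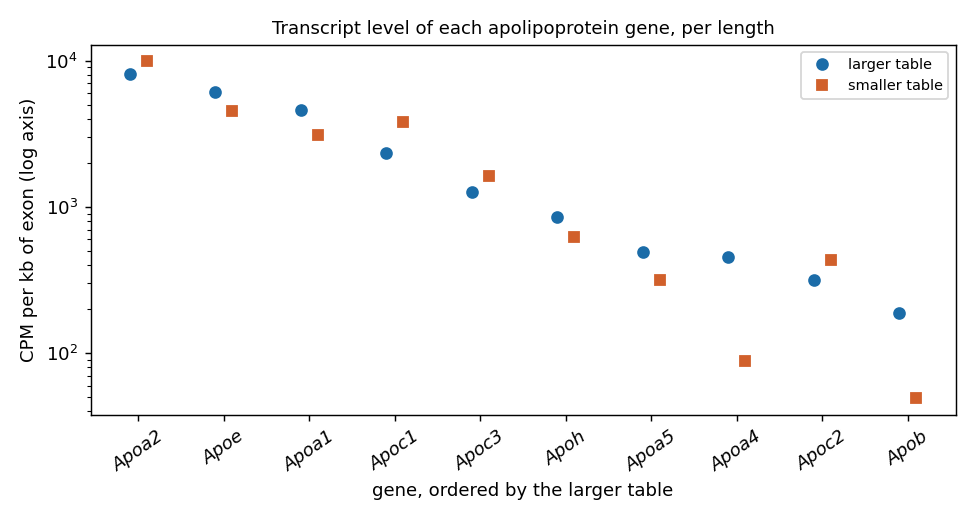
CPM per kilobase of merged exon (vertical, log axis) of each apolipoprotein gene (horizontal, ordered by the larger table); circles are the larger and squares the smaller table, with no error because no value per library is given. On this length Apoa2 is highest in both tables (per longest transcript Apoe is, in the larger), and Apoa4 and Apob are last in the smaller at 87.7 and 49.6.

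No apolipoprotein transcript passed the genotype test. Of 10 genes, 0 passed in the larger of the tables, where 0.296% of 14180 tested genes did, and 0 in the smaller, where 0.266% of 11661 did (DESeq2's Wald test, all member adjusted p at least 0.999). At an unadjusted p under 0.05 the count was 1 in the larger table, Apoh, against 3.62% of all tested genes, and 0 in the smaller, against 4.11%. All 10 genes were tested in both tables, so a filter on low values removed none. In both tables, 8 of the 10 fold changes were below 0, with a median of -0.08 in the larger and -0.10 in the smaller. Over all tested genes 50.4% and 49.7% were below 0, and both medians were 0.00. Below 0 in both tables were 7 genes. The moderated values ran from 11.4% lower to 4.77% higher in the larger table and from 13.6% lower to 0.483% higher in the smaller.

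**Figure D2:**
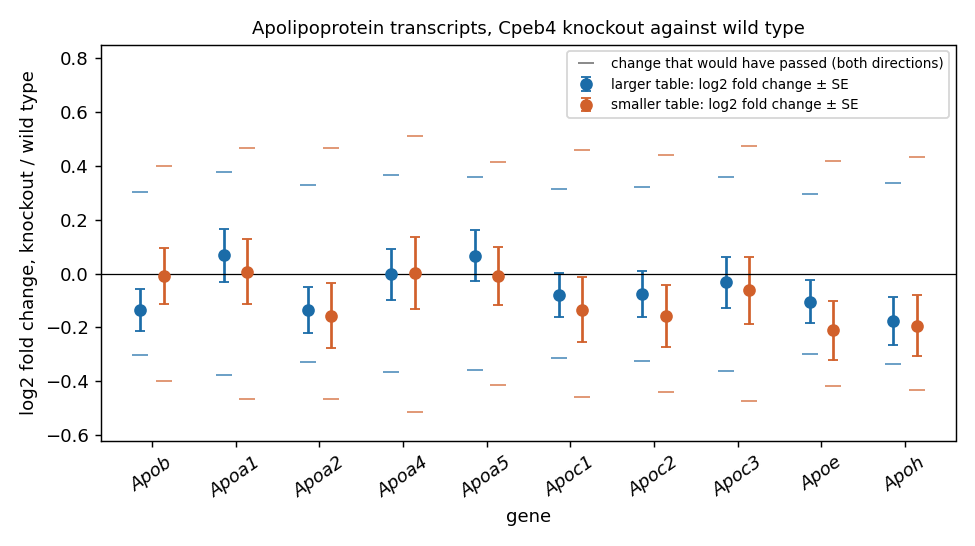
Moderated log2 fold change of knockout over wild type (vertical) for each apolipoprotein gene (horizontal), with its SE; short dashes mark the change in either direction that would have passed the authors' test at that gene's SE. All 20 points lie inside the dashes, which run from 0.30 to 0.38 in the larger and from 0.40 to 0.51 in the smaller table.

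These limits follow from the SEs of the family, which were 0.08 to 0.10 in the larger and 0.10 to 0.13 in the smaller table. The lowest Wald score among genes that passed was 3.80 and 3.84 in size, and multiplied by a gene's SE it gives the moderated change that gene would have needed. With 2 libraries a group, a change smaller than that was not detectable, and the values below do not show that the levels were alike.

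Apob, whose protein each VLDL particle is built on, had a mean count of 97865 in the authors' deposited larger table and a log2 fold change of -0.14 ± 0.08 (p = 0.0891). In the authors' deposited smaller table its mean was 25452 and its change -0.01 ± 0.10 (p = 0.933). The 95% interval of the larger table's value ran from -0.29 to 0.02. The difference between the tables, 0.13 ± 0.13, was the largest of the family and did not pass (z test across all genes, adjusted p = 1.00).

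The HDL proteins lay on different sides of 0. Apoa1 had a mean count of 211899 and a change of 0.07 ± 0.10 in the authors' deposited larger table (p = 0.497), and 141319 and 0.01 ± 0.12 in the smaller (p = 0.954). Apoa2 had 162806 and -0.14 ± 0.09 in the authors' deposited larger table (p = 0.118), and 195383 and -0.16 ± 0.12 in the smaller (p = 0.198). The 95% intervals of both genes included 0 in each table, from -0.13 to 0.26 for Apoa1 and from -0.30 to 0.03 for Apoa2 in the larger. Apoa1 was the one gene above 0 in both tables.

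Apoa4 and Apoa5 lie beside Apoa1 on chromosome 9. Apoa4, a protein of chylomicrons, VLDL and HDL, was closest to 0, at 0.00 ± 0.10 in the authors' deposited larger table (mean 30625, p = 0.972) and 0.00 ± 0.13 in the smaller (mean 5867, p = 0.996). Apoa5, a low-abundance plasma protein that promotes triglyceride breakdown by lipoprotein lipase, had 0.07 ± 0.09 (mean 46493, p = 0.482) and -0.01 ± 0.11 (mean 29510, p = 0.936) in the authors' deposited tables. The signs of both genes differed between the tables, within less than 1 SE of 0.

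The C apolipoproteins were below 0 in both tables, by less than 1 SE in the larger. Apoc1, which inhibits the uptake of remnants and several lipid enzymes, had -0.08 ± 0.08 in the authors' deposited larger table (mean 64904, p = 0.341) and -0.13 ± 0.12 in the smaller (mean 104490, p = 0.264). Apoc2 had -0.08 ± 0.09 (mean 9659, p = 0.372) and -0.16 ± 0.11 (mean 12940, p = 0.169) in the authors' deposited tables, with the reservation on shared sequence given above. Apoc3 had -0.03 ± 0.09 (mean 47590, p = 0.734) and -0.06 ± 0.12 (mean 61075, p = 0.610) in the authors' deposited tables. None of these 6 values came near the change needed to pass.

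Apoh had the most negative value of the larger table and Apoe that of the smaller, where Apoh came next. Apoe stood at -0.10 ± 0.08 in the authors' deposited larger table (p = 0.184) and at -0.21 ± 0.11 in the smaller (p = 0.0515), with a 95% interval of -0.42 to 0.00 in the latter. Apoh, which encodes beta-2-glycoprotein I, a phospholipid-binding plasma protein, had -0.17 ± 0.09 in the authors' deposited larger table (mean 50572, p = 0.0488) and -0.19 ± 0.11 in the smaller (mean 36618, p = 0.0874). Of 14180 tested genes, 509 had a p as small as that of Apoh, 3.59% of all. Of 11661, 497 had one as small as that of Apoe in the smaller table, or 4.26%.

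Macrophages also express Apoe and Apoc1. Of 10 markers of Kupffer cells and other macrophages, 9 in the larger and 10 in the smaller table were below 0, with medians of -0.11 and -0.11. None passed, and 0 and 1 had an unadjusted p under 0.05. Their summed level was 190 and 134 CPM, against 12968 and 9648 for Apoe. Their part in the Apoe value was not tested. In RNA of whole tissue, fewer cells of a type and less RNA per cell cannot be told apart. Of 6 hepatocyte markers, 5 were below 0 in each table, with medians of -0.11 and -0.09, and 1 in each (Ttr) had an unadjusted p under 0.05. Among them Alb and Ttr, both abundant secreted proteins, stood at -0.11 ± 0.09 and -0.19 ± 0.08 in the authors' deposited larger table and at -0.14 ± 0.11 and -0.24 ± 0.11 in the smaller, without passing, and Hnf4a was the one above 0. Markers of enterocytes, the other main source of apolipoproteins, summed to 0.306 and 0.166 CPM, and the highest of them, Vil1, had mean counts of 6.08 and 5.53 in the authors' deposited tables.

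Erythroid markers, mainly globin transcripts of red blood cells, lay further below 0 than any apolipoprotein by their median. All 4 tested markers were below 0 and had an unadjusted p under 0.05 in each table, with medians of -0.30 and -0.40, and 0 passed. Globin genes have near-identical copies, so their single values are uncertain. Their summed level was 314 and 383 CPM, and their part in the members' values was not tested. Stellate cell markers were below 0 in 5 of 5 and 3 of 4 (medians -0.08 and -0.12), and cholangiocyte markers in 2 of 3 in each table (-0.05 and -0.05). Of sinusoidal endothelial markers 2 of 5 were below 0 in each table (medians 0.01 and 0.04). A single lymphocyte marker was tested, at 0.03 and -0.07. None of these had an unadjusted p under 0.05.

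By locus, the 4 genes of chromosome 9 ran from -0.03 to 0.07 in the larger and from -0.06 to 0.01 in the smaller table. The 3 genes of chromosome 7 ran from -0.10 to -0.08 and from -0.21 to -0.13. The genes of chromosomes 9 and 7 did not overlap in either table. They were set side by side after the values were seen, though, and the gap between them is smaller than 1 SE of any of these genes. Apoa2, Apob and Apoh, at loci of their own, ran from -0.17 to -0.14 and from -0.19 to -0.01. In the smaller table that range overlaps both others.

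The genotype effect did not differ detectably between the tables for any of the 10 genes. Smaller minus larger, the log2 fold changes differed by values that ran from -0.11 for Apoe to 0.13 for Apob, with SEs of 0.13 to 0.16, and 0 of 10 passed (z test, Benjamini-Hochberg over 11604 genes, every member's adjusted p rounding to 1.00). Of all genes 0.0172% passed, which is 2 genes. The SD of z over all genes was 0.535 and not about 1, as unmoderated fold changes with exact SEs from independent tables would give. With z divided by that SD 10 genes passed, none of them a member. At an unadjusted p under 0.05 the member count was 0. Only 0.138% of all genes reached that threshold, so a count of 0 among 10 decides nothing. The 95% interval of the Apoe difference was -0.37 to 0.15 and that of Apob -0.13 to 0.38. The test treats the tables as independent, although the description label of each ER library carries the same number as that of a liver library of its genotype, so that both preparations may come from the same mice. The labels do not state this.

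The level of the members differed more between the tables than the moderated values differed from 0 between the genotypes. As a share of all mean counts, Apoa4 was lower in the smaller table by -2.36 on the log2 scale and Apob by -1.92, below all but 2.87% and 4.46% of the 11604 genes tested in both. Apoa5 (-0.64), Apoa1 (-0.56), Apoh (-0.45) and Apoe (-0.43) had lower shares as well. Apoc1 (0.71), Apoc2 (0.44), Apoc3 (0.38) and Apoa2 (0.28) had higher shares. The median over the 10 was -0.44, and over all genes tested in both tables -0.23. These are single values from separately normalised tables and carry no test.

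The sign of that shift followed gene length within the family. The 4 genes with exon lengths of 537 to 1014 bases had the higher shares and the 6 genes of 1236 to 13934 bases the lower ones, and Spearman's rho of shift against length was -0.78 over the 10 genes. Among all genes tested in both tables the sign differed less between these lengths: 41.3% of 889 genes of up to 1014 bases and 35.4% of 10449 genes of at least 1236 bases had a higher share. Other abundant secreted plasma proteins had a rho of -0.71 over 29 genes, with 28 of 29 shares lower in the smaller table and a median of -0.83. Abundant cytosolic proteins had a rho of -0.11 over 28 genes, 4 lower shares and a median of 0.50. Over 11575 genes rho was -0.25. Genes of a table share the same libraries, so these are descriptions across genes.

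**Figure D3:**
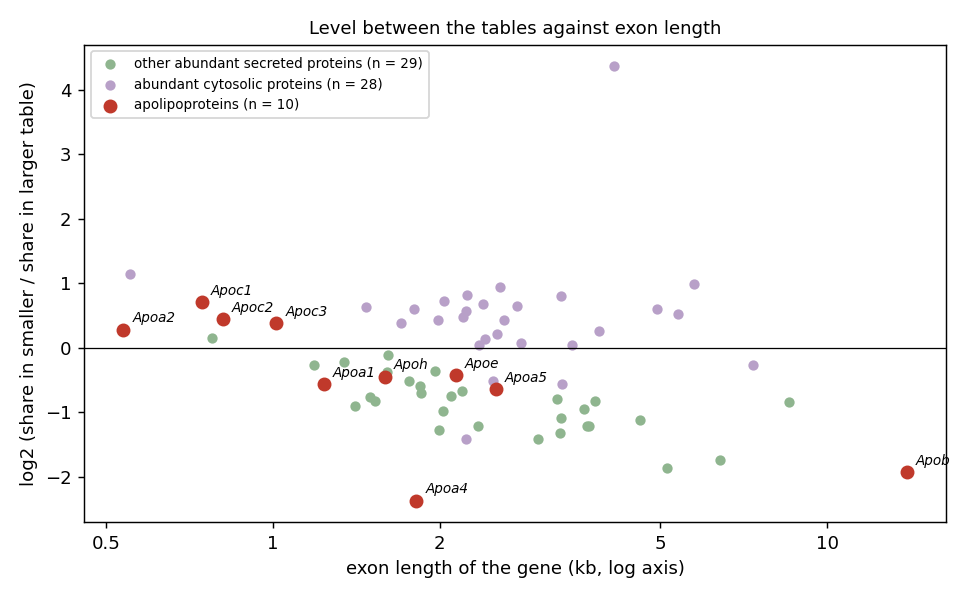
Log2 ratio of a gene's share of counts in the smaller over the larger table (vertical) against its exon length in kilobases (horizontal, log axis), 1 point per gene. The 4 short apolipoprotein genes lie above 0 and the 6 longer ones below, with Apoa4 at -2.36 and Apob at -1.92.

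Of the genes of all pathway lists, 5 of 138 tested (3.62%) passed the Wald test in the larger table and 2 of 135 (1.48%) in the smaller, against 0.296% and 0.266% of all tested genes. The lists were chosen with earlier results known, so nothing is read from these shares. Of other apolipoproteins and proteins carried by HDL, 0 of 15 and 0 of 13 tested genes passed (2 and 3 at an unadjusted p under 0.05), with medians of -0.01 and -0.04. Apom, which carries sphingosine-1-phosphate on HDL, was the highest at 0.07 ± 0.10 and 0.07 ± 0.13 in the authors' deposited tables. Saa4 was the lowest of the larger table at -0.32 ± 0.09 (adjusted p = 0.136) and Apol9b of the smaller at -0.39 ± 0.12 (adjusted p = 0.256), both in the authors' deposited tables. Of 17 genes of lipoprotein assembly, secretion and Apob mRNA editing, 0 passed in either table (2 and 1 at an unadjusted p under 0.05), with medians of -0.12 and -0.03. Their extremes were the diacylglycerol acyltransferases Dgat2 (-0.18 ± 0.08 and -0.24 ± 0.11) and Dgat1 (0.06 ± 0.12 and 0.13 ± 0.14) in the authors' deposited tables. Mttp, which loads lipid onto Apob, had -0.12 ± 0.09 and -0.03 ± 0.12 in the authors' deposited tables.

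Among lipases and remodelling factors, 1 of 13 fell in the larger table and 0 of 13 in the smaller. Pltp, which transfers phospholipid between lipoproteins, was that gene, at -0.38 ± 0.10 (adjusted p = 0.0338) in the authors' deposited larger table and -0.30 ± 0.14 (adjusted p = 0.999) in the smaller. With no mean filter it did not pass in the larger either (adjusted p = 0.0563). Lpl, lipoprotein lipase, was highest in the larger at 0.14 ± 0.12 and Lipg, endothelial lipase, in the smaller at 0.09 ± 0.13, both in the authors' deposited tables. Among receptors and uptake proteins, 1 of 11 fell in the larger table, and 0 of 10 passed in the smaller. That gene was the fatty acid receptor Cd36, at -0.62 ± 0.12 (adjusted p = 0.000126) in the authors' deposited larger table and -0.51 ± 0.14 (adjusted p = 0.0665) in the smaller. The largest positive values were those of the syndecan Sdc1 (0.19 ± 0.09, larger) and the lipolysis-stimulated receptor Lsr (0.19 ± 0.14, smaller) in the authors' deposited tables, which did not pass.

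Of 25 tested regulators of apolipoprotein genes, 1 rose and 1 fell in the larger table, and 1 rose in the smaller. Ppargc1a, a coactivator induced by fasting, rose by 0.51 ± 0.12 (adjusted p = 0.00648) in the authors' deposited larger table and by 0.67 ± 0.13 (adjusted p = 0.000667) in the smaller. Srebf1, a driver of fatty acid synthesis, fell in the authors' deposited larger table (-0.41 ± 0.11, adjusted p = 0.0449) and had -0.32 ± 0.13 in the smaller. It did not pass with no mean filter (adjusted p = 0.0748) or when centred on the secreted list (0.0518). Against a t distribution with 2 degrees of freedom, 0 genes of either table passed, not even the deleted Cpeb4. Nothing about single genes is therefore read from that setting. Hnf4a, the nuclear receptor on which many apolipoprotein genes depend, had 0.03 ± 0.10 and 0.03 ± 0.12 in the authors' deposited tables. The medians of the list were -0.03 and -0.02.

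The other abundant secreted proteins and the cytosolic proteins give the surroundings of the family's medians of -0.08 and -0.10. Secreted proteins had medians of 0.00 and -0.03 over 29 tested genes, with 14 and 13 above 0. Igfbp2, an insulin-like growth factor carrier, passed in the larger table as the highest member (0.35 ± 0.09, adjusted p = 0.0182, in the authors' deposited table) and had 0.25 ± 0.11 in the smaller. Serpina6, the glucocorticoid carrier of plasma, was lowest in both at -0.36 ± 0.12 and -0.41 ± 0.13 in the authors' deposited tables. Cytosolic proteins had medians of 0.06 and 0.03 over 28 genes, with Got1 rising in the authors' deposited smaller table (0.54 ± 0.13, adjusted p = 0.0232). The extremes that did not pass were Arg1 (0.37 ± 0.11) and Khk (-0.29 ± 0.09) in the larger and Fabp1 (-0.33 ± 0.13) in the smaller, all in the authors' deposited tables.

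**Figure D4:**
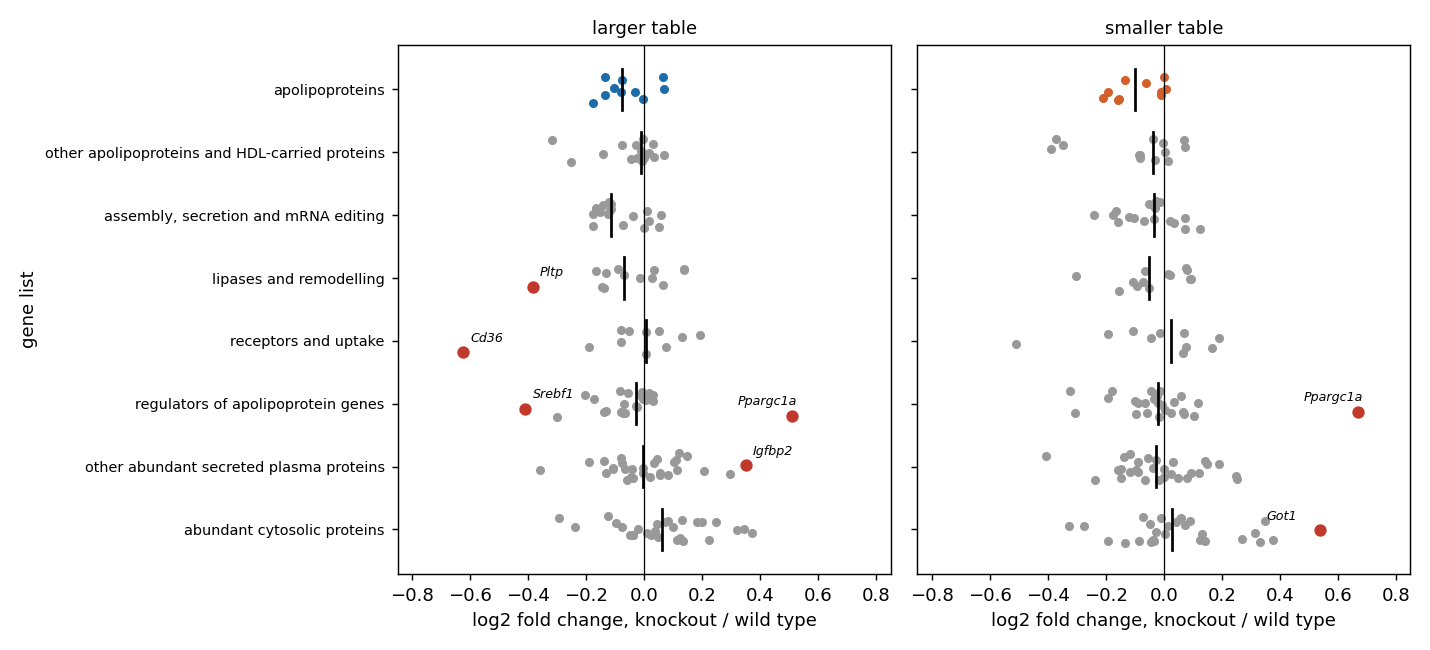
Moderated log2 fold change of knockout over wild type (horizontal) for every tested gene of each list (vertical, points spread for visibility), larger table on the left and smaller on the right; black bars are list medians and red named points passed an adjusted p of 0.05. The apolipoproteins lie between -0.17 and 0.07 on the left and between -0.21 and 0.01 on the right, and none is red.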

How the data were processed

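Per the submitters' processing notes, STAR 2.3.0e and DESeq2 1.6.3 were used with the genome build mm10, in roles the notes leave out. The annotation and the counting tool are not stated there. The authors deposited, per the file headers, a mean signal for each gene (counts divided by size factors), a log2 fold change with its SE, the Wald score, its p-value and the adjusted p-value. Genes without an adjusted p-value were left out of tests. No value per library is given, so the planned count test was not run and the authors' Wald test stands in its place.

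Identifiers were matched to GENCODE M21 (GRCm38), 23484 of 23634 and 21080 of 21201. Levels are shares of summed mean counts, per kilobase of merged exons. The difference between tables was a z test. It was tried on simulated data with independent tables, exact SEs and no moderation. The SD of z given above shows that these tables depart from that setting, so the trial does not vouch for the test here. Each promoter and transcript end was searched by exact letters. The members, the lists and the alternatives were chosen with earlier results of these data known. Named genes are the members and, from each pathway list, those that passed and the highest and lowest in each table; Cpeb4, Mttp, Hnf4a, Alb, Ttr and Vil1 were added for their role. Marker lists of 8 cell types were summarised alike. List genes that matched no row of the tables were not analysed here. Python 3.11.15, pandas 2.3.3, numpy 2.4.6, scipy 1.17.1 and matplotlib 3.10.9 were used.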

Additional observations from a re-analysis of the deposited data

How the results depend on the processing

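No apolipoprotein gene passed under any of the 7 alternative settings in either table (lowest member adjusted p 0.930, Wald test). They were no mean filter, a mean of at least 100, a t distribution with 2 degrees of freedom, exclusion of genes overlapping or sharing sequence (which kept 6 of the 10), and centring on the median of all tested genes, of the secreted list or of the 500 highest genes. The sign turned for values near 0. Centred on the secreted list, Apoa4 had 0.0010 in the larger table and Apoa5 and Apob had 0.019 and 0.019 in the smaller, and centred on all tested genes Apoa4 had -0.00013 in the smaller. Genes of the pathway lists that passed numbered 5 in the larger table as reported, and 3 with no mean filter (without Pltp, adjusted p = 0.0563, and Srebf1, 0.0748). Without overlapping or sharing genes 1 passed there, Cd36, and that filter left out Igfbp2, Pltp, Ppargc1a and Srebf1. With the t distribution 0 passed. In the smaller table they numbered 2 as reported, and 0 with the t distribution. Without overlapping or sharing genes 2 also passed there, but not the same 2. Got1 stayed (adjusted p = 0.00973), Ppargc1a was left out by the filter, and another list gene passed. Srebf1 also missed when centred on the secreted list (0.0518). Over all genes, the calls went from 42 to 11 and from 31 to 15 without overlapping or sharing genes, which leaves 2857 and 2490 genes, and to 0 and 0 with the t distribution. Cpeb4 itself failed with the t distribution, so the lack of member calls under that setting decides nothing. Per kilobase of the longest transcript, Apoe in place of Apoa2 was first in the larger table, and the median level was 1467 and 1586, against 1053 and 1129 per merged exons. Scaled by the median ratio of genes, the median level shift was -0.20 in place of -0.44. The difference between tables had 0 of 10 under both alternatives, and over all genes went from 2 to 10 with z divided by its SD. No element was found in the last 100 bases, nor at the end of any protein-coding transcript of the 10 genes, the latter an alternative chosen after seeing the data. No paired analysis was possible because the tables hold no value per library; edgeR, other normalisations and leaving out a replicate were not run for the same reason.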

Other observations

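RefSeq promoters of 300 bases (GRCm38.p6, spanning the gene start) were found for 8 of the 10 genes, 12 promoters in all. Letters were searched on both strands. TATAAA, the letters of a TATA box, stood in 5 of the 12 promoters, against 13.6% of 32851 promoters. Those 5 belong to 4 of the 8 genes (Apoa2, Apoa5, Apob and Apoe). AGGTCA, a nuclear receptor recognition sequence, stood in 3 of the 12 promoters (of Apoa2, Apoc2 and Apoh), against 16.3%. The letters CAAAGTCCA and CAAAGGTCA, which resemble sites bound by Hnf4a, stood in none of the 12, and in 0.475% and 0.478% of all promoters. A gene with more than 1 promoter has more chances to hold a match, and a match is a description of letters, not a site.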
